A study of Mus musculus with 6 samples.

Results

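NF-κB is a family of transcription factors through which cells answer cytokines, pathogens and injury. Its subunits RelA, RelB and c-Rel (genes Rela, Relb and Rel) carry an activation domain and pair with p50 and p52, which are cut from the precursors p105 and p100 (Nfkb1 and Nfkb2) and lack one. Classical IκB proteins such as IκBα (Nfkbia) and IκBε (Nfkbie) hold the dimers in the cytoplasm until the IKK kinases mark them for destruction. IκBζ (Nfkbiz) and BCL3 are atypical family members that act in the nucleus, and BCL3 binds p50 and p52 dimers, with which it can activate or repress genes. TNIP2, also called ABIN-2, binds the inhibitor A20 and forms a complex with p105 and the kinase TPL2. In the retina this pathway is known from microglia, endothelial cells and Müller glia under stress.

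The 10 genes described are Bcl3, the subunit genes Rela, Relb, Rel, Nfkb1 and Nfkb2, the inhibitor genes Nfkbia, Nfkbie and Nfkbiz, and Tnip2, out of 32285 genes in the count table. They were chosen on an earlier reading of the same comparison, so their levels and fold changes are a description, given without p-values. Retinal RNA of C57BL/6J wild-type pups was sequenced at postnatal day (PN) 18 in 6 libraries. The animals of both groups first spent PN8 to PN13 in 75% O2, the oxygen-induced retinopathy (OIR) model, in which high oxygen destroys central retinal capillaries and the return to room air leaves that area hypoxic. The 3 OIR-CIH libraries came from pups then given chronic intermittent hypoxia (CIH), 266 cycles of 135 s over 10 h a day between 20.95% and 5% O2, as a model of sleep apnea. The 3 OIR-Norm libraries came from pups under the same gas flow with O2 unchanged. The comparison asks how CIH alters gene expression in the ischemic retina.

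Levels are given in CPM, the count of a gene scaled to library size. Total counts per library were between 26289905 and 38010151. All 6 libraries held more than 100 counts of Xist and of each of 4 Y-linked genes, so RNA of both sexes was in each of them and n counts libraries, called retinas here. The paper's methods describe 3 eyes per group, so how many eyes or animals each library holds is not settled. One library, OIR-Norm 2, stood apart. The summed level of 5 lens markers was 337 CPM there and between 15.0 and 46.6 CPM in the other 5 libraries, and pericyte and smooth muscle markers summed to 218 CPM against at most 144 CPM. OIR-Norm 2 was also the highest OIR-Norm retina for 8 of the 10 genes, all but Tnip2 and Nfkbia, so each fold change is given with and without it. What the lens RNA contributed to any of these genes was not tested.

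Many genes of the family are known to be NF-κB targets themselves, so the bases before their transcription starts are shown first. RefSeq (GRCm38.p6) gave promoter windows for 7 of the 10 genes, and Nfkb1, Relb and Nfkbiz had no entry. The 250 bases before each start were searched on both strands for the κB consensus, the NF-κB binding motif. It was in 3.9% of 32851 such windows of 27025 genes, and in windows of 4 of the 7 genes, Nfkb2, Rel, Nfkbia and Nfkbie. The first is a share of windows and the second a count of genes, and a gene with several starts, such as Nfkb2, has several windows. The 2 are therefore not on the same scale. No window of Bcl3, Tnip2 or Rela held it, which says only that no match to this consensus is there. Looser forms of the motif were not searched, and the Tnip2 window holds ggaaaattcc, which this consensus did not match. The windows of Bcl3 and Tnip2, the 2 genes called between groups, are printed with those of the 4 genes that held the motif. They run 5′ to 3′ toward the start and stop before the first exon base, and capitals mark bases inside a κB match, with overlapping matches as 1 run.
Bcl3, chr7:19822771-19823005, minus strand: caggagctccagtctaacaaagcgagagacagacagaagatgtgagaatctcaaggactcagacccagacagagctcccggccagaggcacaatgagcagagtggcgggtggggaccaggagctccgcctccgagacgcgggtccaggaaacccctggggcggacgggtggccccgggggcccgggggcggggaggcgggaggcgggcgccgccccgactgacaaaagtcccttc
Tnip2, chr5:34513992-34514229, minus strand: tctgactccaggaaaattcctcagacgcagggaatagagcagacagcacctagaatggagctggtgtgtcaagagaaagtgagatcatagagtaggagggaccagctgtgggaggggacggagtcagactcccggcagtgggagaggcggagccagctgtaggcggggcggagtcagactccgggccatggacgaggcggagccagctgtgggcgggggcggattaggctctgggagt
Nfkbia, chr12:55492648-55492897, minus strand: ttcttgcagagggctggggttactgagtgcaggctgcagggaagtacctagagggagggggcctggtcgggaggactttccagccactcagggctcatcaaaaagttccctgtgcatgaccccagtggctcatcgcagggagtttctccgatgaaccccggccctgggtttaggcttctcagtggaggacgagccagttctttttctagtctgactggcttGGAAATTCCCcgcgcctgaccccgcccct
Rel, chr11:23770971-23771219, minus strand: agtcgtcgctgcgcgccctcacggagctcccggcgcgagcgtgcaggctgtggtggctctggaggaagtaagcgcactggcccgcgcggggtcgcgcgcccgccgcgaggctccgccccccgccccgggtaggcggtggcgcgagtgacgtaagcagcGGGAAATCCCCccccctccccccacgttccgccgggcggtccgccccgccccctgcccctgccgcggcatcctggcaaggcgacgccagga
Nfkbie, chr17:45555450-45555699, plus strand: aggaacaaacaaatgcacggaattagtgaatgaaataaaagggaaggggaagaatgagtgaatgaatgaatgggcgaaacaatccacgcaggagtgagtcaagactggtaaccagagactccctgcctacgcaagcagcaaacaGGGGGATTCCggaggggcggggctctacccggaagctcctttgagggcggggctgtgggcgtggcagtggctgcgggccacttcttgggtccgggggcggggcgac
Nfkb2, chr19:46305445-46305694, plus strand: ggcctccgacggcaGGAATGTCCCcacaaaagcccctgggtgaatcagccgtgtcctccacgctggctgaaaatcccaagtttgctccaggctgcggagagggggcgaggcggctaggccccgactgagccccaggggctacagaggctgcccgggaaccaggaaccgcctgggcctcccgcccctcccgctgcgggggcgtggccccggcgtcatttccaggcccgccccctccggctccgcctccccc
The match began 29 bases before the start of Nfkbia, 92 before that of Rel and 106 before that of Nfkbie. Nfkb2 has several starts. The printed window belongs to a downstream start and held 1 match, 236 bases before it. The window of the third start, which overlaps the printed one, held another, GGGACTTTCC, 225 bases before that start. The window of the most upstream start, which begins inside an annotated exon and is not printed, held 2 matches, GGGAATTCCC and GGGGCTTTCC, beginning 39 and 11 bases before that start. The STAT-type motif TTCNNNGAA, which reads the same on both strands and does not overlap the κB matches, was in 7.02% of all windows. Among the 7 genes it was in that most upstream Nfkb2 window, 148 bases before the start, and in no window of the other 6. The Bcl3 and Tnip2 windows had GC contents of 67.6% and 63.2%, within the range of 57.6% (Nfkbie) to 77.6% (Rel) of the 7 genes.

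Bcl3 was the gene of the group with by far the lowest relative level in OIR-CIH retinas. It measured 1.57, 1.42 and 1.27 CPM in OIR-CIH retinas 1 to 3 and 5.71, 7.26 and 5.78 CPM in OIR-Norm retinas 1 to 3. Every OIR-CIH retina lay below every OIR-Norm retina, with a gap of 4.14 CPM between the nearest pair. The means were 1.42 ± 0.15 CPM (SD, n = 3) and 6.25 ± 0.875 CPM (SD, n = 3), a 4.4-fold difference, with a fitted log2 fold change of -2.15 (SE 0.19). It was -2.03 without OIR-Norm 2 and between -2.22 and -2.03 when any 1 retina was left out. Raw counts ranged from 40 to 207 per library, so counting error is part of the spread. Bcl3 lies on chromosome 7 (GENCODE M21, GRCm38, positions 19808462 to 19822770, minus strand) and shares 161 exon bases with the opposite-strand gene Gm16175, which had 8 counts in all 6 libraries together.

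Tnip2 was lower as well. It measured 16.9, 17.0 and 14.7 CPM in OIR-CIH retinas 1 to 3 and 22.7, 24.3 and 26.8 CPM in OIR-Norm retinas 1 to 3. The groups did not overlap and the nearest retinas were 5.63 CPM apart. The means were 16.2 ± 1.28 CPM and 24.6 ± 2.09 CPM (SD, n = 3 each), 34.0% lower in OIR-CIH, with a log2 fold change of -0.60 (SE 0.10), and -0.61 without OIR-Norm 2. The gene lies on chromosome 5 (positions 34496087 to 34513991, minus strand) and shares no exon base with another annotated gene.

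**Figure D1:**
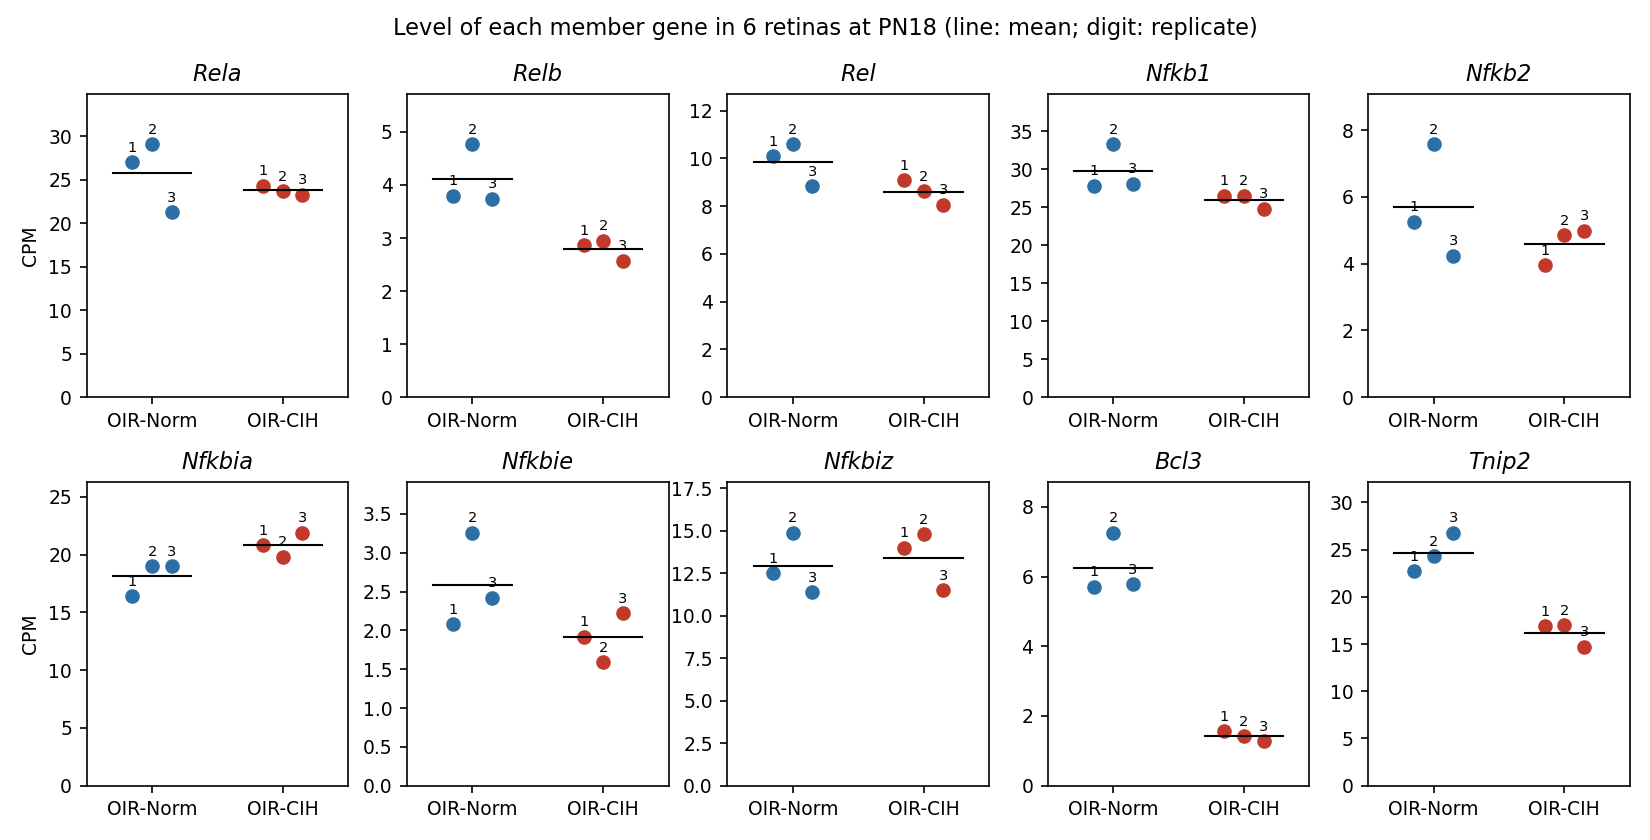
CPM of each of the 10 genes (y axis, from 0) in the 3 OIR-Norm retinas (blue) and the 3 OIR-CIH retinas (red), with the mean as a line and the replicate number above each point. Bcl3 and Tnip2 separate the groups widely, Relb and Nfkb1 narrowly, and Nfkbia lies higher in OIR-CIH, while the other 5 genes overlap.

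Of the subunits with an activation domain, Relb, the partner of p52 in the non-canonical pathway, differed most. Its levels were 2.86, 2.95 and 2.57 CPM in OIR-CIH retinas 1 to 3 and 3.80, 4.77 and 3.74 CPM in OIR-Norm retinas 1 to 3, again without overlap. The log2 fold change was -0.56 (SE 0.18) and -0.44 without OIR-Norm 2. Rela, the subunit of the canonical p50-RelA dimer, measured 24.3, 23.7 and 23.3 CPM against 27.0, 29.1 and 21.3 CPM, so that the lowest of the 6 retinas was OIR-Norm 3. Its log2 fold change of -0.12 (SE 0.11) was -0.02 without OIR-Norm 2. Rel, which is prominent in lymphoid and myeloid cells, measured 9.10, 8.63 and 8.07 CPM against 10.1, 10.6 and 8.83 CPM, with overlap through OIR-Norm 3 and a log2 fold change of -0.19 (SE 0.12), or -0.14 without OIR-Norm 2.

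The precursor genes differed little. Nfkb1 measured 26.5, 26.5 and 24.8 CPM in OIR-CIH retinas 1 to 3 and 27.8, 33.3 and 28.1 CPM in OIR-Norm retinas 1 to 3. The groups did not overlap, yet the nearest retinas were only 1.29 CPM apart, and the log2 fold change of -0.19 (SE 0.09) shrank to -0.11 without OIR-Norm 2. Nfkb2 measured 3.96, 4.85 and 4.98 CPM against 5.26, 7.58 and 4.24 CPM. Its difference rested on OIR-Norm 2, since a log2 fold change of -0.29 (SE 0.20) became -0.04 without that retina. Nfkb2 also shares 299 exon bases with the opposite-strand gene Psd, which had 54679 counts over the 6 libraries where Nfkb2 had 942. The library kit keeps the strand, but which strand column was counted is not given in the sources used here.

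The inhibitor genes did not move in 1 direction. Nfkbia, whose rapid resynthesis ends NF-κB signalling, was the only gene of the 10 with every OIR-CIH retina above every OIR-Norm retina. It measured 20.8, 19.8 and 21.9 CPM in OIR-CIH retinas 1 to 3 and 16.4, 19.0 and 19.0 CPM in OIR-Norm retinas 1 to 3, a log2 fold change of 0.21 (SE 0.10) that was 0.24 without OIR-Norm 2. The gap between the nearest retinas was 0.827 CPM. Nfkbie measured 1.92, 1.59 and 2.22 CPM against 2.08, 3.26 and 2.42 CPM, overlapping, with a log2 fold change of -0.41 (SE 0.23) and -0.22 without OIR-Norm 2. Nfkbiz, a nuclear IκB induced by interleukin-1 and Toll-like receptor signals, measured 14.0, 14.8 and 11.5 CPM against 12.5, 14.9 and 11.4 CPM. Its log2 fold change of 0.04 (SE 0.13) was 0.16 without OIR-Norm 2 and changed sign when either OIR-CIH 2 or OIR-Norm 3 was left out.

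**Figure D2:**
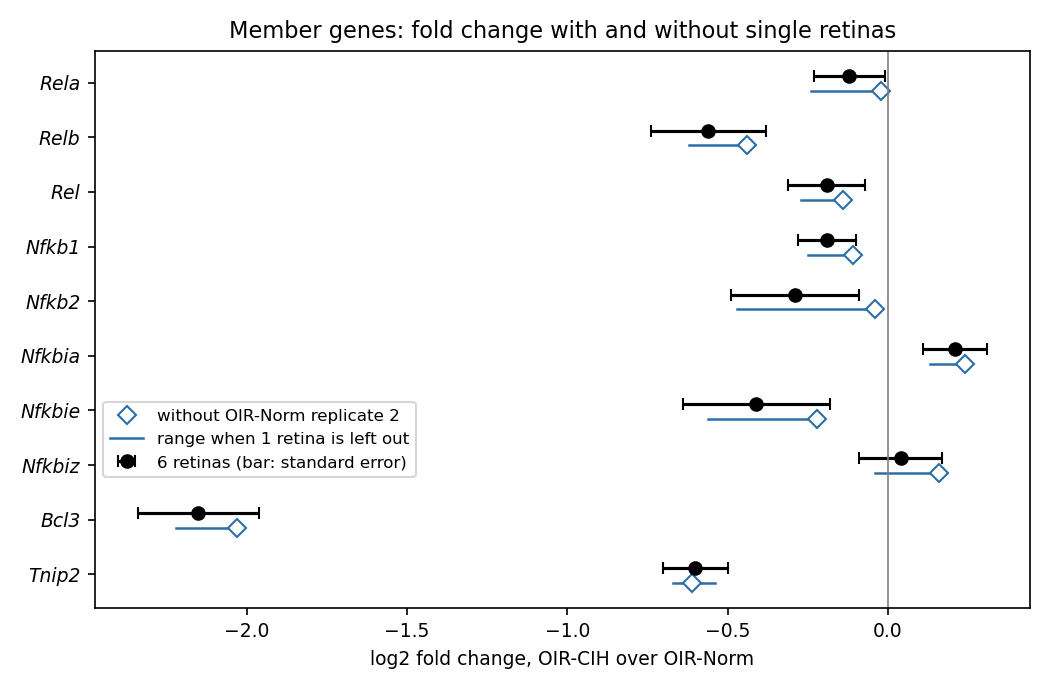
Log2 fold change of OIR-CIH over OIR-Norm (x axis) for the 10 genes: black points and bars give the fit of 6 retinas with its standard error, blue lines the range when 1 retina is left out, and open diamonds the value without OIR-Norm 2. Without that retina the values of Rela and Nfkb2 lie near 0, whereas Bcl3 stays at -2.03 and Tnip2 at -0.61.

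Across the group, 8 of 10 log2 fold changes were negative and the median was -0.24, beside -0.01 over the 20021 genes tested, of which 50.9% were negative. All 10 genes passed the filter on low counts. With a call defined as an adjusted p under 0.05 in edgeR's quasi-likelihood test and an absolute log2 fold change over 0.5, 2 of the 10 were called, Bcl3 and Tnip2, both lower in OIR-CIH. When 1 retina was left out, Bcl3 always kept its call and Tnip2 kept it only without OIR-Norm 1. The rule called 0.315% of all genes tested, 0.210% as lower and 0.105% as higher. All 3 OIR-CIH retinas lay below all 3 OIR-Norm retinas for 4 of the 10 genes and for 9.26% of all genes, and above them for 1 of the 10 and 9.12% of all genes. Since this comparison chose the genes, nothing is read from these counts.

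Levels of different genes can be compared only per length, here as CPM per kb of annotated exon. In OIR-Norm retinas Nfkbia was highest at 11.3 ± 0.945 CPM per kb (SD, n = 3), followed by Tnip2 (9.15 ± 0.777) and Rela (8.4 ± 1.31), whose ranges overlapped. Nfkbiz (2.58 ± 0.358), Bcl3 (2.53 ± 0.354) and Nfkb1 (2.46 ± 0.255) came next and could not be ordered beyond their spread. Rel (1.32 ± 0.121), Nfkb2 (1.24 ± 0.373), Relb (1.06 ± 0.149) and Nfkbie (0.849 ± 0.2) were lowest, each overlapping its neighbour. In OIR-CIH retinas the same scale put Bcl3 last of the 10, at 0.574 ± 0.0605 CPM per kb, within the range of Nfkbie at 0.628 ± 0.103. There Rela (7.73 ± 0.161) lay above Tnip2 (6.04 ± 0.476) in every retina, and the remaining genes kept their order.

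BCL3 acts on p50 dimers, so the level of Bcl3 was set against that of Nfkb1. Per length, the ratio of Bcl3 to Nfkb1 RNA was 0.288, 0.261 and 0.249 in OIR-CIH retinas 1 to 3 and 1.0, 1.06 and 1.0 in OIR-Norm retinas 1 to 3. Both genes were highest in OIR-Norm 2, and the ratio there was close to that of the other OIR-Norm retinas. Since Nfkb1 itself differed little, the ratio mostly repeats the difference in Bcl3 RNA. It is no measure of p50 or BCL3 protein. The ratio of Nfkbia to Rela was 1.68 ± 0.108 in OIR-CIH and 1.37 ± 0.293 in OIR-Norm retinas (SD, n = 3 each), with overlap through OIR-Norm 3 at 1.7.

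**Figure D3:**
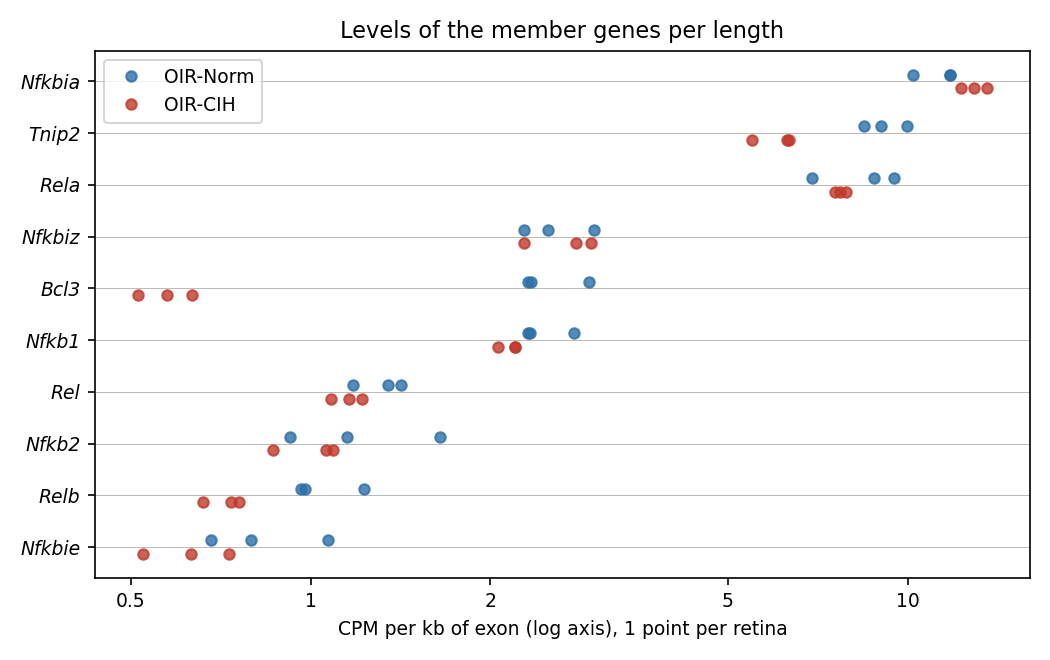
CPM per kb of exon (x axis, log scale) of the 10 genes, ordered by their OIR-Norm mean, with 1 point per retina (OIR-Norm blue, OIR-CIH red). Bcl3 lies beside Nfkbiz and Nfkb1 in OIR-Norm retinas and at the bottom, between 0.513 and 0.634, in OIR-CIH retinas.

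For 4 of the 5 subunit genes the share in their pool overlapped between groups. Of the summed CPM per kb of the 5 subunit genes, Rela made up 60.6 ± 0.645% in OIR-CIH and 58.0 ± 2.11% in OIR-Norm retinas (SD, n = 3 each). Nfkb1 gave 16.9 ± 0.302% and 17.1 ± 1.56%, Rel 9.03 ± 0.385% and 9.14 ± 0.514%, and Nfkb2 7.87 ± 1.05% and 8.46 ± 1.34%. Relb was the only subunit whose share did not overlap between groups, with 5.3% to 5.88% in OIR-CIH and 6.71% to 7.8% in OIR-Norm retinas.

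The genes whose pattern over the 6 retinas was most like that of Bcl3 were ranked by Pearson's r of log2(CPM + 0.5) against 14799 genes with a mean of at least 1 CPM. The first 5 were Lad1 (r = 0.994), Hmox1 (0.994), Zfp518b (0.993), Zscan18 (0.993) and Ahr (0.993). Hmox1, which encodes heme oxygenase 1, measured 8.56 ± 0.515 CPM in OIR-CIH and 39.0 ± 3.53 CPM in OIR-Norm retinas (SD, n = 3 each), a log2 fold change of -2.19 next to the -2.15 of Bcl3. Lad1, coding for ladinin 1, a protein of basement membrane zones, had -1.64, and Ahr, the aryl hydrocarbon receptor gene, had -0.26. For Tnip2 the list was Tnnt2 (0.997), Gm47887 (0.995), Fbxo4 (0.994), Sh2b1 (0.993) and Larp4 (0.992), with log2 fold changes from -1.4 to -0.06. For Nfkbia it was Nhlh2 (0.982), Zswim3 (0.976), Tfap4 (0.969), Fn3k (0.966) and Pot1a (0.964). These are correlations over only 6 points that share the split into groups, and with so many genes searched high values are found for any gene that separates them.

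The rest of the pathway was covered by 137 genes in 9 lists, chosen with earlier results of these data known, of which 130 passed the filter. In edgeR's quasi-likelihood test 3 of the 130 fell in OIR-CIH, Stat3, Socs3 and Jak3, and 1 rose, Tifa, against 0.210% and 0.105% of all genes. Their median log2 fold change was -0.05. Tifa, an adaptor that activates TRAF6, measured 12.4, 11 and 10.9 CPM in OIR-CIH retinas 1 to 3 and 7.59, 7.02 and 7.57 CPM in OIR-Norm retinas 1 to 3, with a log2 fold change of 0.62 and an adjusted p of 0.0378 (Benjamini-Hochberg). That call was lost in each of the 6 fits that left out 1 retina, where the adjusted p was between 0.0657 and 0.214. Of the 19 adaptor genes 11 had negative and 8 positive log2 fold changes, with a median of -0.03. An unadjusted p under 0.05 was found for 4 of them, 3 of these lower in OIR-CIH, against 13.4% of all genes. The 3 were Tirap, Ripk1 and Myd88, with log2 fold changes of -0.48, -0.37 and -0.29 (adjusted p 0.172, 0.197 and 0.339 from edgeR).

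The core of the signalling route differed little. Of 14 IKK genes and upstream kinases none was called, and the median log2 fold change was -0.02. Chuk, Ikbkb and Ikbkg, the genes of the IKK complex, had log2 fold changes of 0.07, 0.00 and -0.02 (adjusted p 0.825, 0.996 and 0.913 from edgeR), and Map3k14, the kinase of the non-canonical route, had -0.17 (0.462). Map3k8, which encodes the TPL2 kinase that TNIP2 and p105 bind, was the gene with the largest difference in this list. It measured 1.10, 1.07 and 1.03 CPM in OIR-CIH retinas 1 to 3 and 1.82, 2.0 and 2.26 CPM in OIR-Norm retinas 1 to 3, without overlap, and its log2 fold change of -0.93 (SE 0.23) had an adjusted p of 0.157. Tnfaip3, the A20 gene, was at 236 ± 7.22 and 237 ± 17.2 CPM (SD, n = 3 each), and none of 15 negative regulators was called. None of 6 other IκB and Tnip genes tested was called either, and 5 of them were slightly higher in OIR-CIH, such as Nkiras2 at 0.25 (adjusted p 0.334). None of 9 genes for BCL3-binding proteins was called, among them Kat5 (-0.05) and Hdac1 (-0.04), and their median was 0.02. An unadjusted p under 0.05 was found for 13.4% of all genes tested and for 1 of these kinases, 3 negative regulators, 1 of the other IκB and Tnip genes and 0 BCL3-binding genes. DESeq2 called 0 in all 4 lists.

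No receptor or target gene was called by edgeR, although most of their log2 fold changes were negative. Of 15 receptor genes 14 had negative log2 fold changes, with a median of -0.36, or -0.25 without OIR-Norm 2. For 6 of the 15 every OIR-CIH retina lay below every OIR-Norm retina, against 9.26% of all genes. Unadjusted p were under 0.05 for 8 receptor genes, against 13.4% of all genes, and none was called by edgeR. DESeq2, which called 135 of all genes, called 2 receptor genes, Tnfrsf1a and Tnfrsf1b, for the tumour necrosis factor receptors. Tnfrsf1a measured 15.6, 13.0 and 15.7 CPM in OIR-CIH retinas 1 to 3 and 25.3, 26.6 and 17.3 CPM in OIR-Norm retinas 1 to 3, with a log2 fold change of -0.64 and adjusted p of 0.131 from edgeR and 0.00367 from DESeq2. Tnfrsf1b had -0.78 (0.157 from edgeR and 0.0243 from DESeq2), and Tlr4, the lipopolysaccharide receptor gene, had -0.86 (0.236 from edgeR). Eda2r, with the lowest p of this list, was near the detection limit, with 6, 5 and 2 counts in OIR-CIH and 29, 14 and 33 counts in OIR-Norm retinas. Its log2 fold change of -2.52 had an adjusted p of 0.0744 from edgeR. Only the edgeR fit without OIR-Norm 2 called Eda2r (-2.77, adjusted p 0.0428).

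Of 24 target genes tested 17 had negative log2 fold changes, with a median of -0.32, or -0.19 without OIR-Norm 2. None was called by edgeR, 11 had an unadjusted p under 0.05 (13.4% of all genes) and DESeq2 called 2, Icam1 and Csf1. Csf1 measured 6.63, 6.1 and 8.87 CPM in OIR-CIH retinas 1 to 3 and 11.5, 14.4 and 9.64 CPM in OIR-Norm retinas 1 to 3, without overlap. Its log2 fold change of -0.70, or -0.54 without OIR-Norm 2, had adjusted p of 0.157 from edgeR and 0.00951 from DESeq2. The paper, which used DESeq, reports Csf1 as lower in OIR-CIH by sequencing and also by qPCR. Icam1, an adhesion molecule for leukocytes, measured 1.29, 1.04 and 1.72 CPM in OIR-CIH retinas 1 to 3 and 2.92, 3.58 and 1.98 CPM in OIR-Norm retinas 1 to 3, a log2 fold change of -1.02 with adjusted p of 0.186 from edgeR and 0.0396 from DESeq2. Vcam1, its counterpart on endothelium, had 0.13 (0.547 from edgeR). Ccl2, a monocyte chemokine, had 6, 16 and 5 counts in OIR-CIH and 13, 92 and 10 counts in OIR-Norm retinas, and its log2 fold change of -2.10 became -0.32 without OIR-Norm 2. Of 8 ligand genes tested 0 were called by edgeR or DESeq2 and 2 had an unadjusted p under 0.05. Il18 was at 5.99 ± 0.429 CPM in OIR-CIH and 5.34 ± 0.576 CPM in OIR-Norm retinas (SD, n = 3 each), while Tnf, Il1b and Il6 were barely detected. Tnf had 0, 2 and 3 counts in OIR-CIH and 6, 7 and 4 counts in OIR-Norm retinas, Il1b had 0, 3 and 0 against 8, 11 and 1 counts, and Il6 had at most 3 counts in any library and did not pass the filter.

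Cytokine signalling through gp130 and STAT3 has been described to induce Bcl3 in other cells. The list for this route held 3 of the 4 called pathway genes, 1 of which, Jak3, encodes a kinase that pairs with the common gamma chain and not with gp130. Stat3 measured 96.4, 98.6 and 97.1 CPM in OIR-CIH retinas 1 to 3 and 157, 163 and 133 CPM in OIR-Norm retinas 1 to 3, and fell by 0.63 on the log2 scale (SE 0.08, adjusted p = 0.0062 from edgeR), in all 6 fits without 1 retina. Socs3, a feedback inhibitor induced by STAT3, fell by 1.34 (SE 0.23, adjusted p = 0.0276 from edgeR). Its OIR-Norm values of 15.2, 31.2 and 16.3 CPM all exceeded the 7.81 to 8.81 CPM of OIR-CIH retinas, and OIR-Norm 2 was the highest, without which the log2 fold change was -0.94. Jak3 fell by 1.0 (SE 0.17, adjusted p = 0.0226 from edgeR). Calls of Socs3 and Jak3 were kept in 3 and 2 of the 6 fits without 1 retina. Il6st, the gp130 gene, had -0.43 (adjusted p 0.0645 from edgeR). Over the 20 genes of this list log2 fold changes were negative for 12 and positive for 8, median -0.12.

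**Figure D4:**
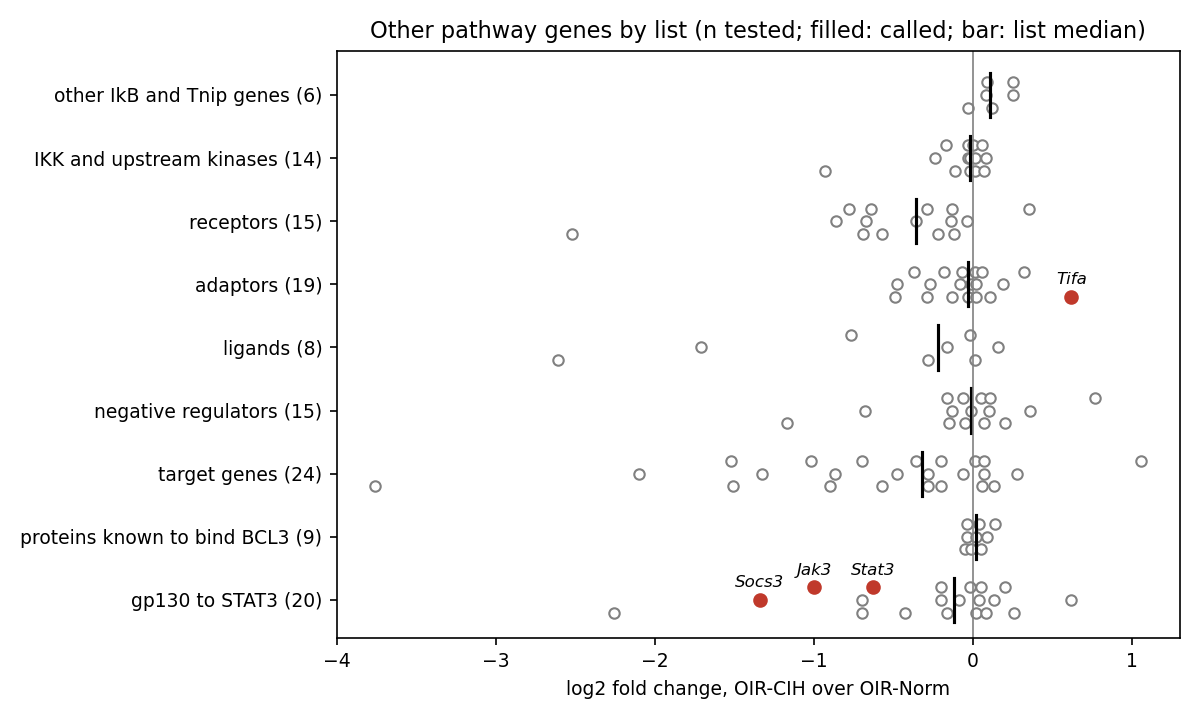
Log2 fold change of OIR-CIH over OIR-Norm (x axis) for the tested genes of 9 lists outside the 10 genes, with called genes filled in red and named and the list median as a black bar. Receptors (-0.36) and target genes (-0.32) have the lowest medians, and the kinases, adaptors and negative regulators lie around 0.

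Bulk RNA does not tell fewer cells of a type from less RNA per cell, and the cells that carried Bcl3, Tnip2 or Relb RNA are not known from these libraries. Markers of cell types that use this pathway had these values. Of 12 microglia markers 11 were lower in OIR-CIH and 0 were called by edgeR (1 by DESeq2, 6 at an unadjusted p under 0.05, against 13.4% of all genes). Their summed level was between 108 and 125 CPM in OIR-CIH and between 131 and 149 CPM in OIR-Norm retinas. By flow cytometry, the paper counted fewer microglia in OIR-CIH than in OIR-Norm retinas at PN18. All 7 tested markers of other leukocytes were lower, with sums of 13.1 to 14.9 against 18.5 to 19.9 CPM, and the T cell marker Cd3e was at 0 in every library. Of these 7 markers 0 were called by edgeR or DESeq2, and 4 had an unadjusted p under 0.05. Of 5 genes taken as astrocyte markers 4 were lower, with sums of 132 to 140 against 194 to 242 CPM, and Gfap was called. Which glia carried the RNA of these genes is not known from these libraries. Of 8 endothelial markers 7 were lower, with overlapping sums of 268 to 303 and 272 to 345 CPM. Of 6 Müller glia markers 2 were lower and 4 higher, with overlapping sums from 2790 to 3330 and from 2690 to 3030 CPM. The part of these cells in the values of the 10 genes was not tested.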

How the data were processed

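Gene counts of 6 retinal RNA libraries (3 per group) were re-analysed, with groups and replicate numbers taken from the sample titles. Libraries were made from 250 ng RNA with a stranded mRNA kit. Reads were aligned by the authors using STAR (2.7.9a), and the deposited table holds raw counts for each gene and sample. The labels name GRCm38 and the paper's methods name Ensembl 105, so positions, exon lengths and symbols come from GENCODE M21 (GRCm38) by gene identifier, with symbols for 32158 of 32285 identifiers, and levels per length depend on its exons. Differences in annotation were not resolved. The deposited sample description held no measurement and was not used.

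Genes summing to 10 or more counts entered the test (20021). Counts were scaled by edgeR's TMM factors and tested with its quasi-likelihood test (edgeR 4.0.16, limma 3.58.1, R 4.3.3), OIR-CIH against OIR-Norm, with Benjamini-Hochberg adjustment over all genes. Genes were called at an adjusted p below 0.05 if the log2 fold change was also above 0.5 in size. The standard error is the fitted log2 fold change divided by the root of its F statistic. The test was checked on simulated data. For 1 gene, exactly permuting 3 against 3 retinas cannot reach a p under 0.1. The labels do not say which animals each library came from, so p-values measure only the spread between these libraries. No pair of libraries of the same group agreed within sampling noise.

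The 10 genes and all lists were chosen with earlier results of these data known. Outside the 10, genes named are every called gene and the 4 with the lowest p in each list, 14 fixed genes (Tnfaip3, Ikbkb, Chuk, Ikbkg, Map3k14, Map3k8, Tnf, Il1b, Il6, Icam1, Vcam1, Ccl2, Stat3 and Socs3), of which the text gives those that matter, and the 5 genes most like Bcl3, Tnip2 and Nfkbia. Promoter sequences come from RefSeq (GRCm38.p6). Alternatives were median-of-ratios size factors, DESeq2 (1.42.0), limma-voom, edgeR's legacy fit, other filters, no minimum fold change, a replicate block and leaving out each retina.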

Additional observations from a re-analysis of the deposited data

How the results depend on the processing

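In 13 other fits none of the 10 genes moved by as much as 1 SD between replicates (130 values), and only Nfkbiz changed sign. Leaving out 1 of 3 retinas can hardly move a group mean by 1 SD, so that yardstick shows little for those fits. Small fold changes did shift there, such as Nfkb2 from -0.29 to -0.04 and Rela from -0.12 to -0.02 without OIR-Norm 2. Bcl3 was called in all of them. DESeq2, on the same counts, called 135 genes (101 lower, 34 higher) where edgeR called 63 (42 and 21), all 63 among them, and 8 pathway genes as lower instead of 3. The legacy fit called 0 pathway genes as higher instead of 1. With no minimum fold change 78 genes were called. With a replicate block 68 genes were called, but 1 of the 10 genes instead of 2, since Tnip2 lost its call, 4 pathway genes as lower, Lif among them, and 0 as higher. The replicate numbers did not pair the retinas, with correlations of 0.162, 0.143 and -0.238 between same-numbered ones. Without 1 retina, calls ranged from 29 (without OIR-CIH 1) to 97 (without OIR-Norm 3), lower calls from 22 to 81 and higher calls from 7 (without OIR-CIH 1; 13 without OIR-CIH 2) to 31 (without OIR-Norm 1). Of the 10 genes 1 to 2 were called, since Tnip2 kept its call only without OIR-Norm 1. Pathway genes called lower ranged from 1 (without any 1 OIR-CIH retina) to 7 (without OIR-Norm 3), and 0 were called higher in any of these fits, since Tifa lost its call. The cause of these shifts was not tested, beyond the smaller number of retinas. Among 544 values of named pathway genes, 510 kept their direction and side of the threshold, 16 lost a call, 8 gained one and 10 changed sign without a call. Depth limits the low genes, with 40 to 207 counts for Bcl3 and 46 to 93 for Nfkbie, and cytokine genes at 0 to 11 counts allow no fold change.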

Other observations

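Lif, a gp130 cytokine gene outside the naming rule that was singled out after its values were seen, had 28, 49 and 31 counts in OIR-CIH retinas 1 to 3 and 84, 363 and 61 counts in OIR-Norm retinas 1 to 3. The highest value was in OIR-Norm 2, the library with the lens RNA, and the groups did not overlap without it either. Its log2 fold change of -2.26, with an adjusted p of 0.222 from edgeR, was -0.97 without OIR-Norm 2, and with a replicate block it was called (adjusted p = 0.0308 from edgeR). Osmr, the oncostatin M receptor gene, chosen after its values were seen as well, was called by DESeq2 and without OIR-Norm 3, but not by edgeR on all 6 retinas.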
